A study of Mus musculus with 16 samples.

Results

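ICAM1 and VCAM1 are leukocyte adhesion molecules, and their transcripts were followed here in mouse mammary fibroblasts of 2 genotypes with and without factors from breast tumor cells. The members were the genes of the expression table whose symbol was ICAM1 or VCAM1, which gave 2 of 18132 genes, each with a single value per array. They were chosen by their measured rise with the tumor cell medium, so that response is described here without a test, while the differences between genotypes were tested.

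Primary fibroblasts were prepared from the inguinal mammary glands of female 129S6 mice aged 8 to 10 weeks, either MEKK1+/+ or MEKK1-/-. MEKK1 is a kinase, encoded by the gene MAP3K1, that acts upstream of MAP kinases. Cells of each genotype were kept for 8 h in growth medium, and are called untreated, or in conditioned medium, which is growth medium harvested from cultures of MDA-MB-231, an established line of human breast tumor cells. The 4 groups of 4 arrays were therefore MEKK1+/+ untreated, MEKK1+/+ with conditioned medium, MEKK1-/- untreated and MEKK1-/- with conditioned medium. The study used 3 mice of each genotype for 4 culture replicates per group, so at least some cultures of a genotype shared a mouse, and the labels do not say which. The spread between arrays and every p-value below therefore measure differences between cultures.

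ICAM1 and VCAM1 are membrane proteins of the immunoglobulin superfamily. Leukocytes bind ICAM1 through the beta2 integrins LFA-1 and Mac-1, and VCAM1 through integrins that contain the alpha4 or alpha9 chain. Both are best known from inflamed endothelium, but fibroblasts also carry them, and in many cell types TNF or IL-1 raises their transcription, largely through NF-kB.

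The RefSeq promoter table held a window for Icam1. The 250 bases before its start, on the forward strand of chromosome 9 of GRCm38.p6 (chr9:21015690-21015939), are printed because ICAM1 had the larger response of the pair. Capitals mark GGAAATTCC, a letter string of the NF-kB type at -153 to -145 from the RefSeq start.
Icam1: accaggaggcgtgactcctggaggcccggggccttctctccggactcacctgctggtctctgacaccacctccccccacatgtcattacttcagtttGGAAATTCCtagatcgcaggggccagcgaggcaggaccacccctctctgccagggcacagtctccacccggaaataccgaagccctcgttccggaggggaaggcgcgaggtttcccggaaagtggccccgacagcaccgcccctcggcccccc
The letters GGAAATTCC occurred on either strand in 0.32% of the 32851 mouse promoter windows of 300 bases. The general NF-kB consensus, of which GGAAATTCC is not a match, had 0 matches in the Icam1 window and occurred in 4.51% of all windows. TGANTCA, the core letters of an AP-1 site, did not occur in the Icam1 window and occurred in 7.81% of all windows. The motif strings were chosen after the sequence had been seen, they do not overlap each other, and a match describes letters only. No assay of the study reported on binding to this stretch.

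Each value is the base 2 logarithm of an array intensity after quantile normalization between arrays, which gives every array the same distribution. An intensity follows one probe design, so the levels of the pair were not compared with each other. ICAM1 and VCAM1 both lay, on all 16 arrays, above the 99th percentile of 1075 olfactory receptor genes, which served as the level of probes for genes not used by these cells. That level was passed on all arrays by 6923 genes. The fibroblast identity was borne out by the markers, since 9 of 11 fibroblast genes were above the olfactory level on all arrays, but macrophage genes were measured as well and are given below. MAP3K1, the targeted gene, had a higher and not a lower mean in the groups labelled MEKK1-/-, by 0.53 on the log2 scale untreated and by 0.33 in conditioned medium. Its log2 level was 7.51 to 7.95 in untreated MEKK1+/+ cells and 8.06 to 8.41 in untreated MEKK1-/- cells, and with conditioned medium it was 7.42 to 8.18 and 7.79 to 8.29. The position of its probe relative to the deleted part of the gene is not given, so genotype rests on the labels alone.

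ICAM1 was measurable in untreated cells and higher in conditioned medium in both genotypes. In untreated MEKK1+/+ cells its log2 levels in replicates 1 to 4 were 9.61, 8.40, 9.76 and 10.13, with a mean of 9.47 ± 0.75 (SD, n = 4). In MEKK1+/+ cells with conditioned medium they were 12.01, 12.15, 12.44 and 11.95, with a mean of 12.14 ± 0.22 (SD, n = 4). The highest untreated array was thus below the lowest array with conditioned medium. The log2 difference was 2.67 (SE 0.33), which is 6.35-fold, and it ranked first in size among the rises of all 18132 genes. Such a gap without overlap, in the direction of a rise, was seen for 4.68% of all genes.

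In MEKK1-/- cells ICAM1 showed a similar pattern. Untreated replicates 1 to 4 had log2 levels of 8.46, 9.56, 8.23 and 8.14, with a mean of 8.60 ± 0.66 (SD, n = 4). With conditioned medium the levels were 11.85, 12.26, 12.20 and 12.30, with a mean of 12.15 ± 0.21 (SD, n = 4). The groups again did not overlap, as was the case upwards for 4.9% of all genes. The log2 difference was 3.55 (SE 0.33), or 11.8-fold, and ranked 4 of 18132. The spread between untreated cultures was larger than that between cultures in conditioned medium in both genotypes. Before normalization the deposited intensities of ICAM1 ran from 279 to 1204 over the 8 untreated arrays and from 3277 to 5535 over the 8 arrays with conditioned medium.

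**Figure D1:**
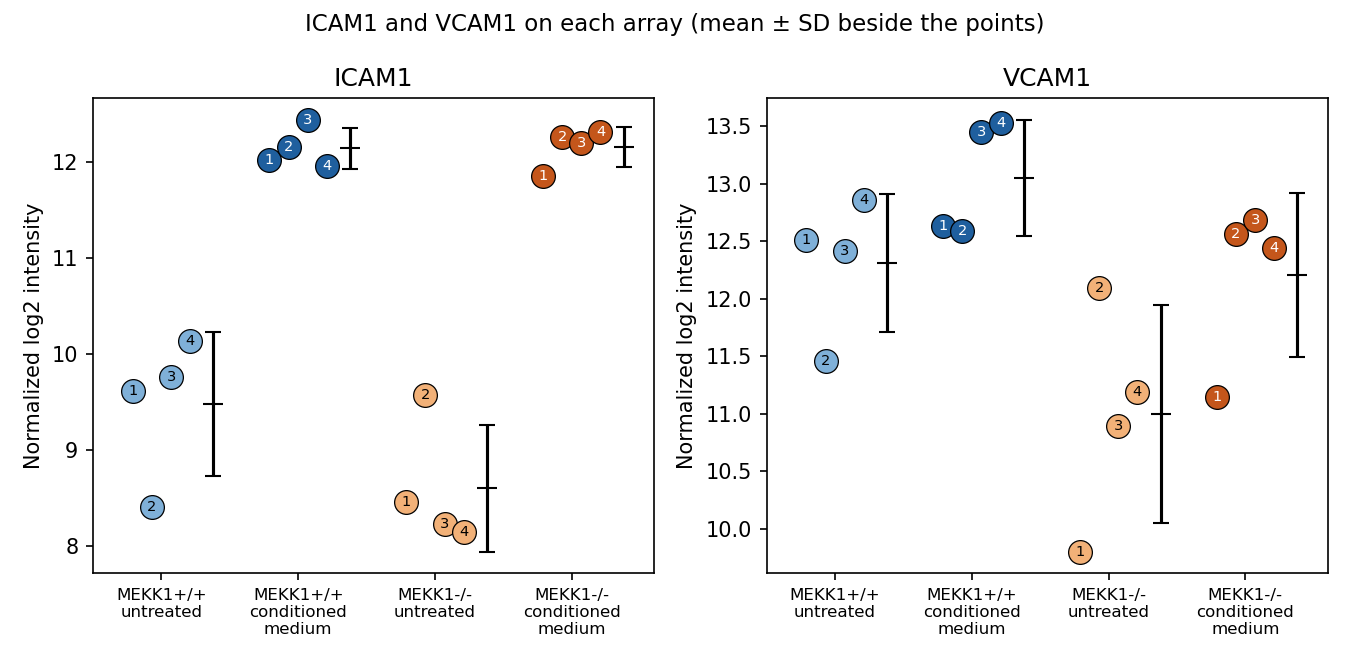
Normalized log2 intensity of ICAM1 (left) and VCAM1 (right) on each of the 16 arrays, by genotype and treatment. Numbers in the points are replicate numbers, and the bars give the mean ± SD of 4 arrays. The ICAM1 arrays with conditioned medium lie between 11.85 and 12.44, above all untreated arrays, while the VCAM1 groups overlap within each genotype.

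VCAM1 was already bright in untreated cells and its change with conditioned medium was smaller. In untreated MEKK1+/+ cells the log2 levels of replicates 1 to 4 were 12.51, 11.46, 12.42 and 12.86, with a mean of 12.31 ± 0.60 (SD, n = 4). With conditioned medium they were 12.63, 12.59, 13.45 and 13.53, with a mean of 13.05 ± 0.51 (SD, n = 4). Replicates 3 and 4 with conditioned medium lay above all untreated arrays and replicates 1 and 2 did not, so the groups overlapped. The log2 difference was 0.74 (SE 0.45), or 1.67-fold, at rank 148 of 18132. It was 0.33 on the deposited values, whose median gene was 0.28 lower with conditioned medium in this genotype, and 0.46 on the normalized values without untreated replicate 2. In replicate 1 the deposited intensity of VCAM1 was 8872 untreated and 5947 with conditioned medium.

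VCAM1 was lowest in untreated MEKK1-/- cells. There the log2 levels of replicates 1 to 4 were 9.80, 12.10, 10.89 and 11.19, with a mean of 11.00 ± 0.95 (SD, n = 4). With conditioned medium they were 11.15, 12.56, 12.69 and 12.44, with a mean of 12.21 ± 0.71 (SD, n = 4). Replicate 1 was the lowest array in both conditions, and its array with conditioned medium lay below untreated replicates 2 and 4, while the other treated arrays lay above all untreated ones. The log2 difference was 1.21 (SE 0.45), or 2.32-fold, at rank 60 of 18132. It was 0.81 without untreated replicate 1.

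Arrays of a genotype that carried the same number were also set side by side. In MEKK1+/+ cells the numbers did not pass the check for pairs, so there a shared number is only a label. For VCAM1 the array with conditioned medium was higher than the untreated array of its number in 8 of 8 cases on the normalized values. No share of all genes is given for this count, so it is a description only. On the deposited values the array with conditioned medium was lower in MEKK1+/+ replicate 1 (8872 untreated, 5947 with conditioned medium). It was also lower in MEKK1-/- replicate 2 (4895 untreated, 4186 with conditioned medium). The normalized log2 differences of VCAM1 for replicates 1 to 4 were 0.12, 1.13, 1.03 and 0.67 in MEKK1+/+ cells. In MEKK1-/- cells they were 1.35, 0.46, 1.79 and 1.25. For ICAM1 the differences were larger, from 1.83 to 3.75 in MEKK1+/+ cells and from 2.69 to 4.17 in MEKK1-/- cells. With the replicate number as a block within genotype, the SE of a response was 0.29 for ICAM1 and 0.20 for VCAM1. Without the block it was 0.33 and 0.45, and in MEKK1+/+ cells the block rests on unproven pairs. In MEKK1-/- cells same-numbered arrays also deviated together over all genes, whereas in MEKK1+/+ cells this was not so for replicate 1.

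**Figure D2:**
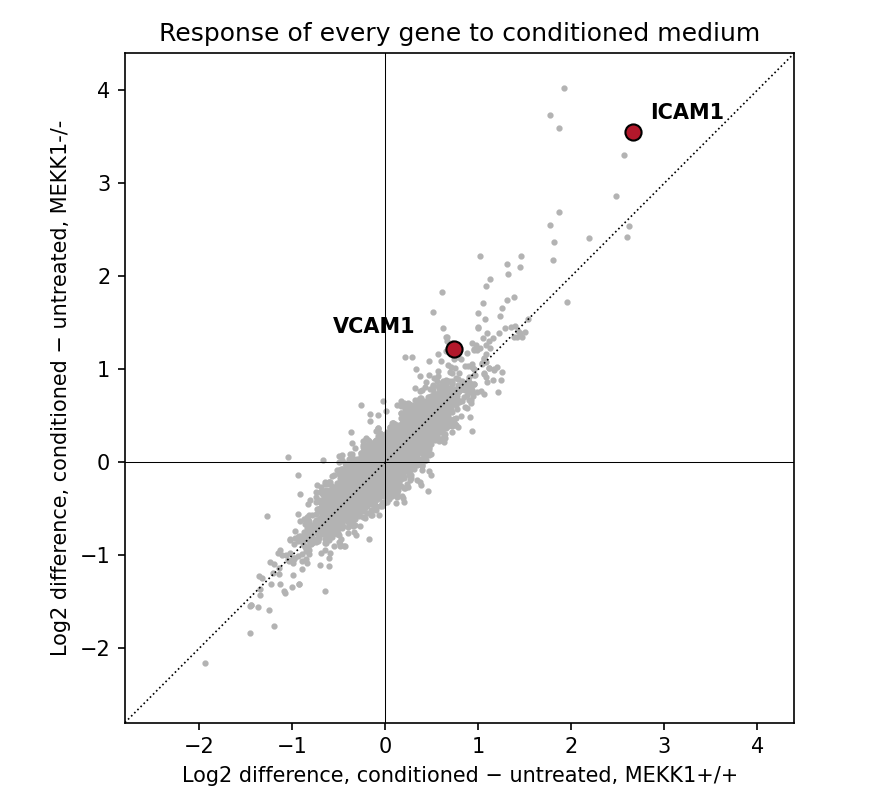
Log2 difference between conditioned medium and untreated cells for each of the 18132 genes, in MEKK1+/+ cells on the horizontal axis and in MEKK1-/- cells on the vertical axis, with ICAM1 and VCAM1 in red and equal responses on the dotted line. ICAM1 lies at 2.67 and 3.55 and VCAM1 at 0.74 and 1.21, so both points are above the line, by distances that did not pass the test given in the text.

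The next question was whether the loss of MEKK1 altered the level or the induction of either molecule. In untreated cells both were lower in the MEKK1-/- group on average, but neither difference passed the threshold over all genes. For ICAM1 the difference, MEKK1-/- minus MEKK1+/+, was -0.87 on the log2 scale (95% interval -1.58 to -0.17), which is 1.83-fold. Its limma p-value adjusted by Benjamini-Hochberg was 0.499, and the 2-sided exact permutation test of 4 arrays against 4 gave p = 0.114. The groups overlapped because MEKK1+/+ replicate 2, at 8.40, lay below MEKK1-/- replicates 1 and 2, at 8.46 and 9.56, while the other MEKK1+/+ arrays lay above all MEKK1-/- arrays. For VCAM1 the difference was -1.32 (95% interval -2.28 to -0.35), which is 2.49-fold, with an adjusted p of 0.466 by limma and p = 0.0571 in the exact test. The arrays numbered 2, at 11.46 in MEKK1+/+ and 12.10 in MEKK1-/-, made these groups overlap. Arrays without overlap, and lower in MEKK1-/-, were found for 2.01% of all genes. Of all genes, 0 (0%) passed the threshold in this comparison by limma, and 1680 (9.27%) had an unadjusted p under 0.05. ICAM1 and VCAM1 were among these 1680, with unadjusted limma p-values of 0.0185 and 0.0107. The smallest p that the exact test allows with 4 against 4 is 0.0286.

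Single arrays moved these differences without bringing either past the threshold. For ICAM1 the log2 difference between untreated genotypes was -1.23 without MEKK1+/+ replicate 2 and -0.66 without MEKK1+/+ replicate 4. For VCAM1 it was -1.68 without MEKK1-/- replicate 2 and -0.92 without MEKK1-/- replicate 1. The lowest adjusted p by limma with an array left out was 0.173 for ICAM1 and 0.174 for VCAM1.

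In conditioned medium the ICAM1 levels of the genotypes lay side by side. The difference was 0.01 (95% interval -0.69 to 0.72), with an adjusted p of 0.996 by limma and p = 0.943 in the exact test. The interval leaves room for a difference of either sign, and the sign turned when each array was scaled to the same median (-0.26). On the deposited values the median gene was 0.28 higher in MEKK1-/- cells in this comparison. For VCAM1 the difference was -0.84 (95% interval -1.80 to 0.12), with an adjusted p of 0.651 and an exact p of 0.114, and it was -0.49 without MEKK1-/- replicate 1. By limma 1 gene (0.00552%) of all genes passed the threshold in this comparison, and it was neither of the pair. An unadjusted p under 0.05 was found for 1466 genes, and MEKK1-/- arrays lay below all MEKK1+/+ arrays for 1.85%, a pattern that neither of the pair showed.

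The responses themselves were then compared between genotypes. The response of ICAM1 was larger by 0.89 on the log2 scale in MEKK1-/- cells (SE 0.47, 95% interval -0.11 to 1.89), with an adjusted p of 1.00 by limma. The response of VCAM1 was larger by 0.47 (SE 0.64, 95% interval -0.89 to 1.84), also with an adjusted p of 1.00. Without untreated MEKK1-/- replicate 1 the latter value was 0.08. By limma 0 genes (0%) passed the threshold for this difference between responses, and 473 had an unadjusted p under 0.05. A difference of 1 on the log2 scale lies within both intervals, so arrays of this number cannot tell whether the genotypes responded alike.

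Ordered by mean, ICAM1 ran from untreated MEKK1-/- to untreated MEKK1+/+ cells, then to both groups with conditioned medium. The step from untreated to conditioned medium was the only step between neighbouring groups that the arrays did not bridge. VCAM1 ran from untreated MEKK1-/- cells at 11.00 through MEKK1-/- cells with conditioned medium at 12.21 and untreated MEKK1+/+ cells at 12.31 to MEKK1+/+ cells with conditioned medium at 13.05, and each neighbouring pair of groups overlapped.

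The untreated arrays numbered 2 also differed from the rest of their groups in transcripts of macrophages, cells that themselves carry adhesion molecules and that can remain in primary stromal cultures. The mean log2 level of 16 macrophage markers in untreated MEKK1+/+ replicates 1 to 4 was 9.33, 8.29, 9.03 and 8.78. In untreated MEKK1-/- replicates 1 to 4 it was 8.19, 8.85, 7.68 and 7.71. Thus MEKK1+/+ replicate 2 was the lowest of its group, and MEKK1-/- replicate 2 the highest, as they were for ICAM1 and VCAM1. Other arrays did not keep the same order. MEKK1+/+ replicate 4 was the highest for ICAM1 (10.13) and VCAM1 (12.86) but not in the markers (8.78). MEKK1-/- replicate 1 was the lowest for VCAM1 (9.80) but not in the markers (8.19). The defining genes CSF1R, CD14, LYZ2 and TYROBP were above the olfactory level on 16 of 16 arrays, while PTPRC, FCER1G and MSR1 were above it on none. In all, 7 of the 16 markers were above it on all arrays and 3 on none.

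With conditioned medium, 0 of the 16 macrophage markers passed the test in either genotype. Of all genes, 2.27% rose and 2.75% fell in MEKK1+/+ cells, and 2.18% and 2.51% in MEKK1-/- cells. Beside such shares, 0 of 16 does not set the markers apart from other genes. Their mean level with conditioned medium was 9.12, 8.31, 8.97 and 8.74 in MEKK1+/+ replicates 1 to 4. In MEKK1-/- replicates 1 to 4 it was 8.24, 8.69, 7.67 and 7.67. The median response of the 16 markers was -0.10 in MEKK1+/+ and -0.04 in MEKK1-/- cells. Single markers ran from -0.41 to 0.34 in MEKK1+/+ and from -0.55 to 1.01 in MEKK1-/- cells. Between genotypes the median marker difference was -0.65 in untreated cells and -0.60 with conditioned medium, with 0 of 16 called and 8 and 6 of 16 at an unadjusted p under 0.05, which 9.27% and 8.09% of all genes had. The summed normalized intensity of the markers ran from 10553 to 37772 and from 9421 to 29622 in untreated and treated MEKK1+/+ cells, and from 4733 to 24358 and from 4842 to 20784 in MEKK1-/- cells. In such bulk samples, fewer cells of a type and less RNA per cell cannot be told apart. The part of macrophages in the responses and in the genotype differences of ICAM1 and VCAM1 was not tested.

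**Figure D3:**
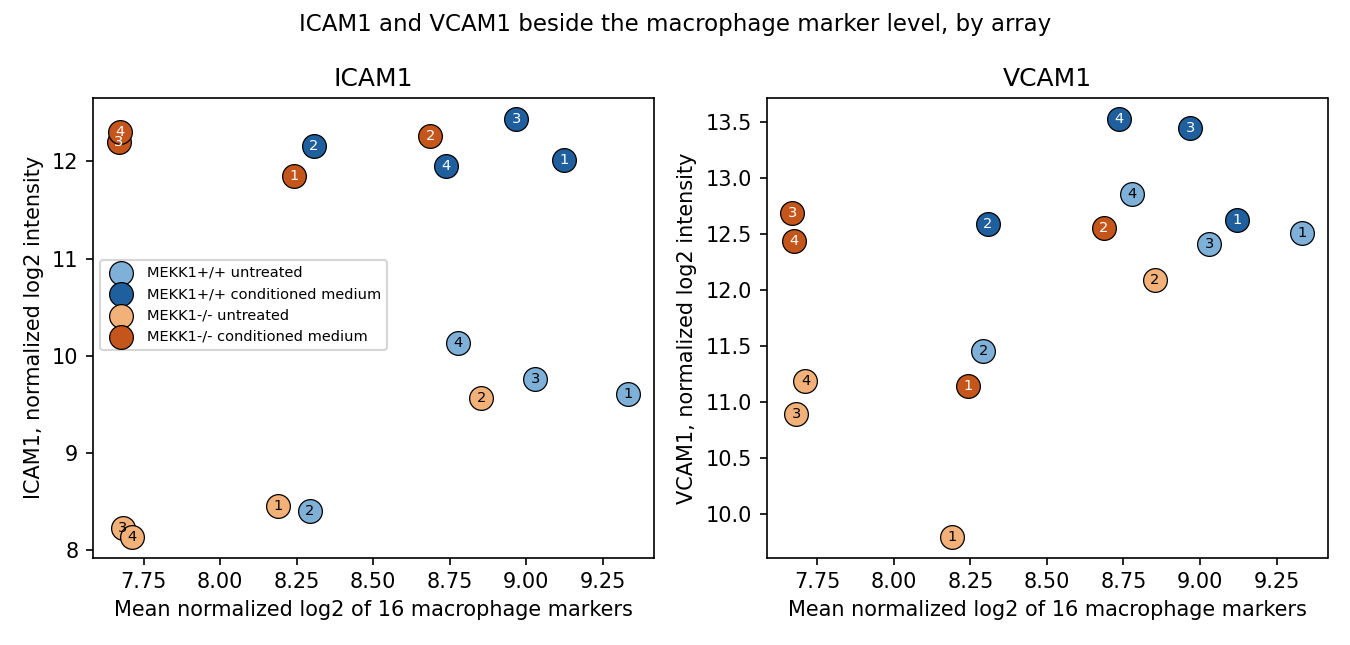
Normalized log2 intensity of ICAM1 (left) and VCAM1 (right) against the mean normalized log2 intensity of 16 macrophage markers, with a point per array and its replicate number inside. Untreated MEKK1-/- replicate 2 lies at a marker level of 8.85 and the other untreated MEKK1-/- arrays at 7.68 to 8.19. The arrays with conditioned medium lie at marker levels of 7.67 to 9.12 and at ICAM1 levels of 11.85 to 12.44.

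Other cell types were checked in the same way. Endothelial cells are the classic site of both molecules, but of 12 endothelial markers only EGFL7 was above the olfactory level on all arrays, KDR, TIE1 and ERG were above it on none, and CDH5 and PECAM1 were above it on 2 arrays each. The mean endothelial level was 7.87 and 7.81 on the untreated and treated arrays of MEKK1-/- replicate 1 and 7.11 to 7.41 on the others. These arrays also stood apart in 8 measured epithelial markers, at a mean of 9.39 and 9.39 against 7.02 to 7.61 elsewhere. They were the lowest VCAM1 arrays of their groups, at 9.80 and 11.15, and the part of these cells in that was not tested. Untreated, the mean endothelial level was 7.11 to 7.30 in MEKK1+/+ and 7.32 to 7.87 in MEKK1-/- cells. The median genotype difference of endothelial markers was 0.26 untreated and 0.18 with conditioned medium. By limma 0 of 12 were called, and 5 and 3 had an unadjusted p under 0.05, beside 9.27% and 8.09% of all genes. For epithelial markers the medians were 0.78 and 0.72, with 0 of 8 called and 0 at that p. Of 5 lymphocyte markers, 0 to 1 were above the olfactory level on any array.

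The surroundings of ICAM1 and VCAM1 were then read from 8 gene lists covering other adhesion molecules, the leukocyte partners, intracellular anchors, sheddases and the pathways known to induce the pair, with 115 genes measured in all. In MEKK1+/+ cells 8 of them rose with conditioned medium (6.96%) and 4 fell (3.48%), against 2.27% and 2.75% of all genes by limma at an adjusted p under 0.05. In MEKK1-/- cells 11 rose (9.57%) and 4 fell (3.48%), against 2.18% and 2.51% of all genes. With the replicate block within genotype, the counts in MEKK1-/- cells were 23 and 8. The same fit called more of all genes too, with 729 rises and 709 falls against 395 and 456 without the block. On the values as deposited, the rises were 2 in MEKK1+/+ cells, CX3CL1 and MMP9, and 3 in MEKK1-/- cells, the same genes and NFKB2, with 7 and 0 falls, while of all genes 32 rose and 763 fell in MEKK1+/+ cells and 34 and 11 in MEKK1-/- cells, against 411 and 498 and 395 and 456 after normalization. The median response of the 115 genes was 0.04 and 0.02 in MEKK1+/+ and MEKK1-/- cells, with members on both sides of 0. An unadjusted p under 0.05 by limma was found for 35 (30.4%) and 41 (35.7%) of them, against 16.8% and 16.2% of all genes. None of the 115 passed the threshold between genotypes or for the difference between responses, where the background was 0 or 1 gene.

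**Figure D4:**
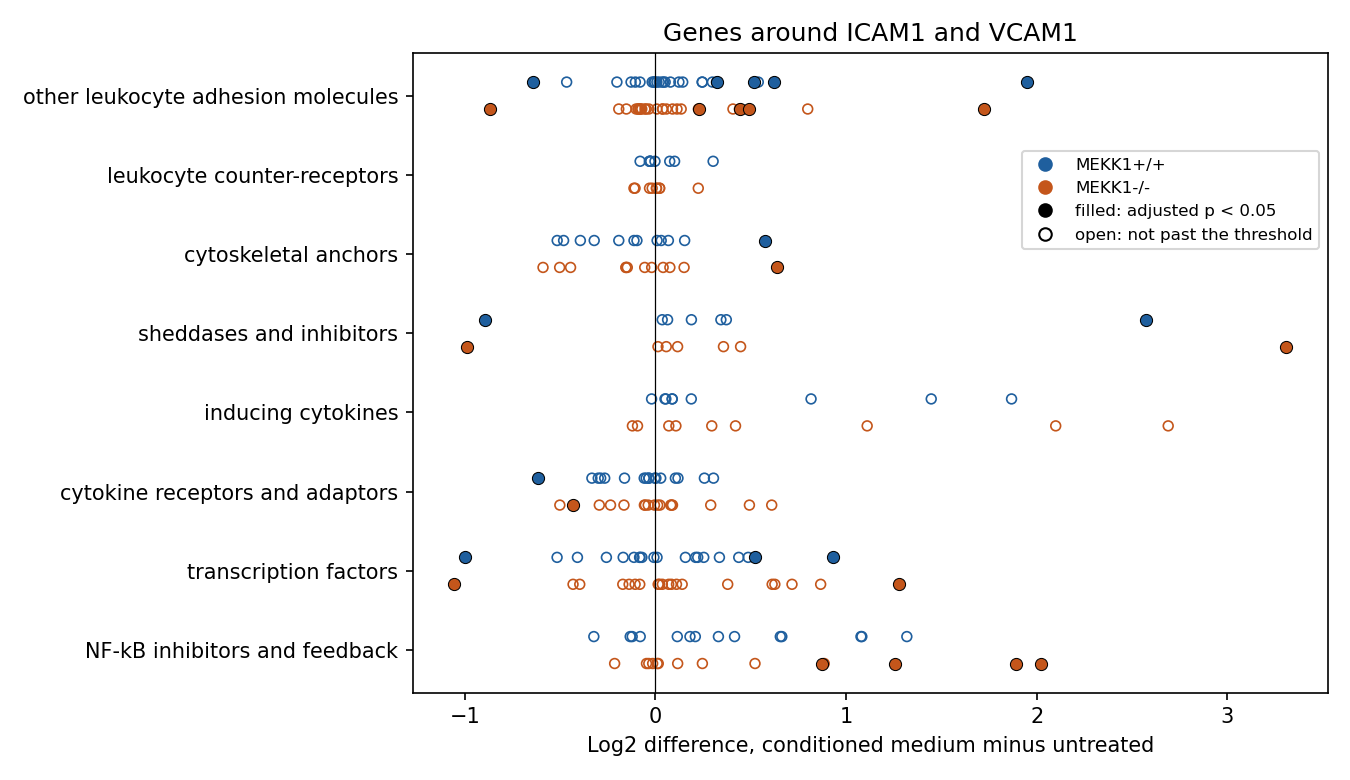
Log2 difference between conditioned medium and untreated cells for the genes of the 8 lists, with MEKK1+/+ in blue and MEKK1-/- in orange. Filled points passed an adjusted p of 0.05 by limma over all genes. MMP9, at 2.57 and 3.31, and CX3CL1, at 1.95 and 1.72, are called in both genotypes.

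Of the 27 other leukocyte adhesion molecules measured, 4 rose, 1 fell and 22 did not pass the test in each genotype. Among all genes 2.27% rose and 2.75% fell in MEKK1+/+ cells, and 2.18% and 2.51% in MEKK1-/- cells. CX3CL1, the membrane-bound chemokine fractalkine that captures leukocytes, was the clearest. Its log2 levels in MEKK1+/+ replicates 1 to 4 were 8.59, 9.13, 9.01 and 9.47 untreated and 11.55, 10.72, 11.03 and 10.71 with conditioned medium. In MEKK1-/- cells they were 9.93, 8.93, 9.79 and 9.70 and then 10.63, 11.21, 11.60 and 11.80. The groups did not overlap in either genotype, and the differences of 1.95 (SE 0.28) and 1.72 (SE 0.28) had adjusted p-values of 0.0011 and 0.0023 by limma. F11R, a junctional molecule that can bind LFA-1, rose by 0.62 and 0.49. ICAM5, a relative of ICAM1 known from neurons, rose by 0.52 and 0.44, yet it was above the olfactory level on only 7 arrays, all with conditioned medium. SELE, the endothelial selectin, was called with differences of 0.32 and 0.23, the latter not with the replicate block (adjusted p 0.0661), but was not above that level on any array, and it is named outside the naming rule because it completes the count. PVRL3, a nectin of cell junctions, fell by 0.64 and 0.87 (adjusted p 0.017 and 0.0028 by limma).

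Of 9 leukocyte counter-receptors measured, 1 was above the olfactory level on all arrays and 4 on none. In either genotype 0 passed the test, and the median response was -0.03 in MEKK1+/+ and 0.00 in MEKK1-/- cells. Among all genes 2.27% rose and 2.75% fell in MEKK1+/+ cells, and 2.18% and 2.51% in MEKK1-/- cells. Beside such shares, 0 of 9 does not set these genes apart. ITGB1, the beta1 chain that pairs with alpha4 and alpha9 and is used by most cells, was above the olfactory level on 16 of 16 arrays, with differences of -0.03 and 0.02. ITGA9, the alpha9 chain, was above it on 13 arrays, and SPN, the leukocyte sialomucin that can bind ICAM1, on 12. ITGB2, the beta2 chain of LFA-1 and Mac-1, was above it on 4 arrays and ITGB7 on 1. ITGA4, ITGAM, ITGAX and ITGAD, the alpha chains of leukocyte integrins, were above it on none.

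The list of cytoskeletal anchors, with 12 genes measured, held actin linkers and also signaling proteins such as GTPases. In each genotype 1 rose, beside 2.27% and 2.18% of all genes, and 0 fell, beside 2.75% and 2.51%. The gene that rose was RHOG, a GTPase recruited to clustered ICAM1. RHOG was called in MEKK1+/+ cells at 0.57 and in MEKK1-/- cells at 0.64. The other 11 did not pass the test, and the list had a median of -0.10 in both genotypes.

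The sheddases and their inhibitors included the largest called rise of the lists. MMP9, a gelatinase reported to cleave ICAM1, rose by 2.57 in MEKK1+/+ cells and by 3.31 in MEKK1-/- cells (SE 0.64 in each, adjusted p 0.0309 and 0.0077 by limma). Its log2 levels in MEKK1+/+ replicates 1 to 4 were 8.89, 8.18, 9.65 and 11.48 untreated and 11.60, 11.50, 12.72 and 12.69 with conditioned medium. In MEKK1-/- cells they were 9.90, 9.50, 7.87 and 7.94 and then 12.66, 12.82, 11.49 and 11.46. The groups did not overlap, although untreated MEKK1+/+ replicate 4 came within reach of the treated arrays. TIMP3, an inhibitor of metalloproteinases that include the VCAM1 sheddase ADAM17, fell by 0.90 and 0.99 (adjusted p 0.0026 and 0.0013 by limma). The other 5 of the 7 genes did not pass the test. Among all genes 2.27% rose and 2.75% fell in MEKK1+/+ cells, and 2.18% and 2.51% in MEKK1-/- cells.

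None of 9 inducing cytokines passed the threshold in either genotype. Among all genes 2.27% rose and 2.75% fell in MEKK1+/+ cells, and 2.18% and 2.51% in MEKK1-/- cells. Only 1 of the 9 was above the olfactory level on all arrays. In each genotype 3 cytokines had an unadjusted p under 0.05, as did 16.8% and 16.2% of all genes. These were IL1B, IL6 and LIF, named after their values had been seen, with differences of 1.87, 1.45 and 0.82 in MEKK1+/+ cells and 2.69, 2.10 and 1.11 in MEKK1-/- cells. With the replicate block within genotype these 3 passed the threshold in MEKK1-/- cells, where numbers pair the arrays, with adjusted p-values of 0.0047, 0.0219 and 0.0164 by limma. IL1B, made mainly by macrophages, had log2 levels of 10.07, 6.88, 9.57 and 11.43 in untreated MEKK1+/+ replicates 1 to 4 and 6.87, 9.40, 6.84 and 6.94 in untreated MEKK1-/- replicates 1 to 4. Here too replicate 2 was the lowest of the first group and the highest of the second. The levels of 6.84 to 6.94 lay below the mean of the lymphocyte markers on the same arrays (6.96 to 7.04). Such values are near the floor, which limits the size of the IL1B differences. With conditioned medium its levels were 11.85, 10.04, 11.23 and 12.29 in MEKK1+/+ and 11.36, 10.92, 9.12 and 9.40 in MEKK1-/- cells. The list's median was 0.09 and 0.30 in response to conditioned medium and -0.48 between untreated genotypes.

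Of 17 receptors and adaptors, 0 rose and 1 fell in each genotype, a different gene in each under the main fit. Among all genes 2.27% rose and 2.75% fell in MEKK1+/+ cells, and 2.18% and 2.51% in MEKK1-/- cells. TNFRSF1A, the main TNF receptor, fell by 0.61 in MEKK1+/+ cells (adjusted p 0.0114 by limma) and had a difference of -0.24 in MEKK1-/- cells that did not pass. LTBR, the lymphotoxin beta receptor, fell by 0.43 in MEKK1-/- cells (adjusted p 0.0247 by limma). Its difference of -0.33 in MEKK1+/+ cells did not pass in the main fit (0.0811). There it passed on the deposited values (0.0403), with equal medians (0.019), on z-scores (0.0216) and with the replicate block (0.0437), all by limma. In MEKK1-/- cells LTBR did not pass on the deposited values (0.781 by limma). The difference between responses had an adjusted p of 1.00 by limma for both.

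Of 20 transcription factors, 2 rose and 1 fell in MEKK1+/+ cells, beside 2.27% and 2.75% of all genes. In MEKK1-/- cells 1 rose and 1 fell, beside 2.18% and 2.51% of all genes. NFKB2, the precursor of the p52 subunit of NF-kB, rose by 0.93 and 1.28 (adjusted p 0.0113 and 0.0015 by limma). Its levels ran from 7.96 to 8.80 in untreated and from 9.08 to 9.87 in treated cells, without overlap. IRF2, an interferon regulatory factor, rose by 0.52 in MEKK1+/+ cells (adjusted p 0.0437) and had a difference of 0.38 in MEKK1-/- cells that passed only with the replicate block (adjusted p 0.0494). KLF2, a factor known to oppose VCAM1 induction in endothelium, fell by 1.00 and 1.05 (adjusted p 0.0368 and 0.0299).

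The inhibitors and feedback genes of NF-kB, many of which are themselves NF-kB targets, came next. Of 14 measured, 0 passed the test in MEKK1+/+ cells, where 2.27% of all genes rose and 2.75% fell. In MEKK1-/- cells 4 rose, beside 2.18% of all genes. These were NFKBIA, the inhibitor IkB alpha, at 1.89 (adjusted p 0.0442), NFKBIZ, a nuclear IkB protein, at 2.02 (0.0173), BCL3, another nuclear IkB protein, at 0.88 (0.0469), and TNIP1, a partner of the inhibitor A20, at 1.26 (0.0431), all by limma. None of the 4 passed in MEKK1-/- cells on the deposited values (adjusted p 0.149 to 0.473 by limma). With equal array medians none passed either (0.0574 to 0.109), while all 4 passed on z-scores and with the replicate block. In MEKK1+/+ cells the same genes had differences of 1.08, 1.32, 0.66 and 1.08 that did not pass. With the replicate block, NFKBIA, BCL3 and TNIP1 passed there too (adjusted p 0.044, 0.0275 and 0.0021 by limma). In MEKK1+/+ cells, however, replicate numbers did not pass the check for pairs, so these calls rest on unproven pairs. The difference between responses had an adjusted p of 1.00 for each of the 4, so the genotypes were not shown to differ in it. The list had a median response of 0.27 in MEKK1+/+ and 0.18 in MEKK1-/- cells.

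The genes whose levels ran most like those of the pair over the 16 arrays were read from 8796 genes that were above the olfactory level on at least 4 arrays. For ICAM1 they were ZSWIM4, PDLIM4, CENTD3, ARRDC4 and BLVRB, with Pearson's r from 0.974 to 0.958 and Spearman's rho from 0.839 to 0.879. For VCAM1 they were SH3PXD2B, CYP4V3, CASP4, CD47 and PDGFRL, with r from 0.970 to 0.943 and rho from 0.909 to 0.962. The top genes of one were thus not those of the other, and ICAM1 and VCAM1 had an r of 0.69 and a rho of 0.69 with each other. VCAM1 stood at place 731 in the order for ICAM1, and ICAM1 at place 662 in the order for VCAM1. These correlations pool 4 groups that share treatment and genotype and are a description only.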

How the data were processed

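Total RNA from 16 cultures was hybridized to Illumina Mouse 8 arrays. The authors deposited linear intensities, 1 per gene symbol and array, which the labels call normalized; the method is not given in the sources used here. Array medians ran from 114 to 170.1, and within-group correlations of log2 values from 0.979 to 0.996, with 0 identical arrays.

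Log2 intensities were quantile normalized, and 4 group means were fitted (12 residual degrees of freedom) with limma 3.58.1 in R 4.3.3, with Benjamini-Hochberg adjustment over 18132 genes. For a single gene, 4 arrays were permuted against 4 exactly, 2-sided. The code was tested on simulated data. Alternatives were the deposited values, equal medians, z-scores, a pseudocount of 16, genes above the median level, array weights, a fit of only the compared groups, robust eBayes with a trend, replicate blocks, the methods' z-test and each array left out. The members and lists were chosen with earlier results of these data known. Named were the pair, called list genes (at most the 4 largest changes per list), the integrin subunits and SPN, and the 5 most similar genes of each member.

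Same-numbered arrays were checked as pairs by correlating their deviations from group means. For conditioned medium in MEKK1-/- cells r was 0.51, 0.40, 0.22 and 0.25 for replicates 1 to 4, all over 0.1, so numbers pair there by this check, not by the labels. In MEKK1+/+ cells r was -0.04, 0.48, 0.12 and 0.58, which failed the rule, as did both genotype comparisons. Not measured were CADM1, ITGAL, EZR, ARHGEF26, TRADD, FOSL1, CEBPD, EPCAM, ESRP1 and CD79A. Another list gene is not reported here. Pericyte and smooth muscle markers had a mean log2 level of 8.51 to 9.01, and fibroblast markers of 11.2 to 11.7.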

Additional observations from a re-analysis of the deposited data

Results flagged for a closer look

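In 44 groups of 4 arrays tested for a value far from the other 3, 2 stood out, and chance alone marks about 1 in 20. VCAM1 in MEKK1-/- cells with conditioned medium had replicate 1 at 11.15 against 12.44 to 12.69 in the others, a gap of 0.839 of the group's range. ITGA9 in MEKK1+/+ cells with conditioned medium had replicate 3 at 7.82 against 7.41 to 7.47, a gap of 0.836 of the range.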

How the results depend on the processing

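The responses of ICAM1 and VCAM1 to conditioned medium kept their sign under all alternatives, and no genotype difference or difference between responses of either passed the threshold under any. Scaling each array to the same median turned the sign of the ICAM1 genotype difference with conditioned medium to -0.26. With the replicate block within genotype, 715 genes rose and 766 fell in MEKK1+/+ cells and 729 and 709 in MEKK1-/- cells, of which the lists held 17 and 10, and 23 and 8. They included 12 of 12 and 14 of 15 list genes called without the block, which changed no call of the pair. In MEKK1+/+ cells, where numbers did not pass the rule for pairs, the block brought IL1B (0.0271), NFKBIA (0.044), BCL3 (0.0275), TNIP1 (0.0021) and LTBR (0.0437) past the threshold by adjusted p. On the values as deposited, 32 genes rose and 763 fell in MEKK1+/+ cells and 34 and 11 in MEKK1-/- cells, of which the lists held 2 and 7, and 3 and 0. With the same median per array, 7 list genes fell in MEKK1+/+ cells, 6 list genes of 221 genes rose and 242 genes fell in MEKK1-/- cells, and 6 genes were lower in MEKK1-/- cells with conditioned medium. With single arrays left out, the ICAM1 response was 2.31 to 2.88 and 3.41 to 3.88, its genotype difference -1.23 to -0.66 and, with conditioned medium, -0.049 to 0.11, and the difference between responses 0.67 to 1.24. That of 0.01 turned negative without MEKK1+/+ conditioned medium replicate 1 (-0.03) or 4 (-0.049) or MEKK1-/- conditioned medium replicate 2 (-0.02), 3 (-0.002) or 4 (-0.04). For VCAM1 the ranges were 0.46 to 0.92, 0.81 to 1.58, -1.68 to -0.92, -1.002 to -0.49 and 0.08 to 0.84. Over all genes, 230 to 461 rose and 276 to 551 fell in MEKK1+/+ cells, 218 to 517 and 246 to 514 in MEKK1-/- cells, 0 to 1 were lower between untreated genotypes, 0 to 2 higher and 0 to 1 lower between genotypes with conditioned medium, and 0 to 1 responded less in MEKK1-/- cells. In the lists, 6 to 13 rose and 2 to 6 fell in MEKK1+/+ cells (13 without untreated replicate 4, 2 without untreated replicate 1 or 2), and 5 to 17 and 2 to 5 in MEKK1-/- cells (17 without untreated replicate 2, 5 without untreated replicate 3 or 4 or conditioned medium replicate 3, 6 without conditioned medium replicate 2, 7 without untreated replicate 1, conditioned medium replicate 4 or MEKK1+/+ replicate 1 or 3 of either condition, and falls of 2 without untreated replicate 3 or conditioned medium replicate 3 or 4). Dim probes near the olfactory level limit SELE, ICAM5 and most integrin chains. The fewest calls over all genes came without untreated MEKK1+/+ replicate 3 (230 and 276) and untreated MEKK1-/- replicates 4 (218) and 3 (246). The cause of these shifts was not tested.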
